A study of Mus musculus with 8 samples.

Results

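The guanylate-binding proteins (GBPs) Gbp2, Gbp3, Gbp4, Gbp5, Gbp6, Gbp7, Gbp8 and Gbp9 and the immunity-related GTPases (IRGs) Irgm1 and Igtp were described in mouse CD8 T cells and group 2 innate lymphoid cells (ILC2s). The 10 genes were taken from a list of GTPases induced by interferon gamma and matched by symbol, and all 10 were found among the 17642 genes of the CD8 T cell count table and among the 18389 genes of the ILC2 count table. RNA was sequenced from 8 libraries of wild-type (WT) primary cells in 4 groups of 2: spleen CD8 T cells cultured alone, spleen CD8 T cells co-cultured with ILC2s, lung ILC2s cultured alone, and lung ILC2s co-cultured with CD8 T cells. Both cell types were mixed at 5:1 and kept together for 3 days, and all 4 groups were then collected by flow cytometry. The groups cultured alone are labelled untreated. Their culture time, the number of mice and any added stimulation are not stated. Whether the 2 libraries of a group stem from different mice or cultures is not stated either; the p-values therefore reflect only the spread between these libraries, which may be technical.

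GBPs are large GTPases of the dynamin superfamily and IRGs are smaller ones; both are made at low levels in resting cells and accumulate when interferon gamma signals through its receptor and the kinases JAK1 and JAK2. They gather on the vacuoles and membranes that enclose intracellular bacteria and parasites, help to break them open, and, for several GBPs, promote inflammasome activation. Interferon gamma itself is encoded by Ifng and is a defining product of activated CD8 T cells, whereas ILC2s are known for type 2 cytokines such as interleukin 5 and interleukin 13.

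Library totals ran from 48072595 to 67076905 counts. Neither table holds a count below 1, so a gene with no read in any one of a table's libraries would not appear in it. Levels are given as CPM, a gene's count over its library total, scaled to one common library size. The CD8 T cell markers summed to between 4414 and 5791 CPM in the 4 CD8 T cell libraries, and the stromal markers to at most 2.58 CPM there. That stromal sum rests on Col1a1 and Pdgfrb only, as Col1a2, Col3a1, Lox, Fn1, Sparc and Dcn did not appear there. In the ILC2 table the 2 libraries labelled as cultured alone went against their label in part. Stromal markers (Col1a1, Lox, Sparc and others) summed to 7249 and 7834 CPM in them and to 9.49 and 9.53 CPM in the co-cultured ILC2 libraries, and all 7 measured ones were lower after co-culture; the eighth, Col3a1, is not in the table. CD8 T cell markers summed to 1373 and 1305 CPM against 171 and 205 CPM (8 of 8 lower), macrophage or monocyte markers to 313 and 319 CPM against 17 and 21.1 CPM (5 of 5 lower, with Mrc1 and Fcgr1 among those not in the table), and NK cell markers to 30.2 and 28.4 CPM against 1.51 and 1.77 CPM (4 of 4 lower). ILC2 markers summed to 2132 and 2198 CPM in the libraries labelled alone and to 6643 and 6195 CPM in the co-cultured ones (7 of 8 higher). These counts stand beside 34.4% lower and 31.8% higher of all genes tested in ILC2s (edgeR adjusted p under 0.05). The single markers behind these sums included Cd8a, which fell from 254 to 6.42 CPM on average, Cd8b1, Trac and Cd3d, and Lox, which fell from 1027 to 0.09 CPM, Col1a2, Sparc and Col1a1. They also included Lyz2 (127 to 0.67 CPM), Cd14, Csf1r and Cd68, and, among those that rose, Il13, Il5 (328 to 1493 CPM), Gata3 and Il1rl1. Of the dendritic, B cell and epithelial or endothelial markers, Itgax, Ms4a1, Cdh1, Sftpc and Epcam fell and Xcr1, Cd79b and Pecam1 rose. With the libraries scaled to ILC2 markers the last 3 turned negative, and Gata3 and Il1rl1 no longer passed, since that scaling sets the median ILC2 marker to 0. In the CD8 T cell table Cd3e, Cd8a, Trac, Rora, Cd68, Itgax, Pecam1 and Epcam rose, and Cd5, Il5 and Gata3 fell; Zbtb46 fell as well (log2 change -0.42, edgeR adjusted p = 0.034), a call lost under 6 of 13 alternatives (adjusted p 0.055 to 0.17). Further markers passed in CD8 T cells, most of them under 5 CPM on average, and went both ways. Lyz2 (log2 change -4.43), Csf1r (-2.75), Cdh1 (-1.67), Il1rl1 (-1.48) and Trbc2 (-0.26) fell. Pdgfrb (1.58), Col1a1 (1.11), Eomes (0.83) and Klri2 (0.74) rose. Of the 4 macrophage or monocyte markers tested there, 1 rose and 2 fell, beside 30.2% higher and 30.7% lower of all genes tested. The lineages that differed between the ILC2 libraries moved with every ILC2 result given here, and their part in those results was not tested. In bulk RNA, fewer cells of a type and less RNA per cell cannot be told apart.

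Before the values, 4 promoters are shown because they hold the letters through which interferon signalling is known to act on this family: the gamma-activated site (GAS) and the interferon-stimulated response element (ISRE), read by interferon regulatory factors. The 250 bases upstream of each RefSeq start were searched (GRCm38.p6) for TTCNNNGAA (GAS, the same on both strands) and for GAAA followed by any 2 bases and a further GAAA, on both strands (ISRE). RefSeq starts were found for 6 of the 10 members, Gbp2, Gbp3, Gbp5, Gbp7, Irgm1 and Igtp; Gbp4, Gbp6, Gbp8 and Gbp9 were not matched. In the lines that follow, written 5′ to 3′ on the strand of the gene with the start just after the last base, capitals mark every GAS and ISRE match. The windows are chr3:142559794-142560043 (plus strand) for Gbp3, chr3:142530086-142530335 (plus strand) for Gbp7, chr11:48871421-48871670 (minus strand) for Irgm1 and chr11:58199306-58199555 (plus strand) for Igtp.
Gbp3: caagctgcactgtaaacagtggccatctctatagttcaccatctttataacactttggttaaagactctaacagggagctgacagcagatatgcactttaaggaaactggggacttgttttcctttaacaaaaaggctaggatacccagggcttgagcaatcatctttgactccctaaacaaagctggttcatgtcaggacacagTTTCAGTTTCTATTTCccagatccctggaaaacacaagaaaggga
Gbp7: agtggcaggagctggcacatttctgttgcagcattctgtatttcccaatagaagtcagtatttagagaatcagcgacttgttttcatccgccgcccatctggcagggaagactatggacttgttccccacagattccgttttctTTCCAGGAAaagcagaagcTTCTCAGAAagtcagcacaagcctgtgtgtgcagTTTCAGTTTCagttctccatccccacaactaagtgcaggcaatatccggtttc
Irgm1: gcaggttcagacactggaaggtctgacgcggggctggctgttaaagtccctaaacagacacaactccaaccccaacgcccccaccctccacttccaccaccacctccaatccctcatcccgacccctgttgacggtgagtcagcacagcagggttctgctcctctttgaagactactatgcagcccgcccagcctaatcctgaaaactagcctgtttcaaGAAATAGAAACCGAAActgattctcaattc
Igtp: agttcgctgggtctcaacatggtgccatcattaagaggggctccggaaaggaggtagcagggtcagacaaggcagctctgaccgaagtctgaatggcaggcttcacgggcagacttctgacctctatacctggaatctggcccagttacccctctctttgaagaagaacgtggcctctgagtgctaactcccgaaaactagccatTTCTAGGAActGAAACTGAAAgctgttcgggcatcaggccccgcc

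An ISRE was found upstream of all 6 matched members, and upstream of 3.46% of the 27025 RefSeq genes searched. Gbp3 held 2 overlapping ISREs that began 45 and 39 bases upstream of its first start and none at its second start, and Irgm1 held 2 overlapping ISREs at 30 and 24 bases. The single ISRE lay 59 bases upstream in Gbp2, 165 in Gbp5, 53 in Gbp7 and 34 in Igtp. A GAS was found in 3 of the 6, namely Gbp5 (245 and 52 bases upstream), Gbp7 (106 and 87) and Igtp (45), against 8.13% of genes; both motifs together were found in the same 3 members and in 0.4% of genes. A match is a string of letters and not a measured binding site.

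Ifng, the inducer, was lower in the co-cultured libraries of both cell types. In CD8 T cells it stood at 1591 and 1513 CPM in the libraries cultured alone and at 105.7 and 106 CPM in the co-cultured ones, a log2 change of -3.95 ± 0.08 (SE; edgeR quasi-likelihood test, adjusted p = 4.6e-12). In the ILC2 table Ifng stood at 203 and 210 CPM in the libraries labelled alone, and the co-cultured libraries held 18 and 150 reads (0.37 and 3.12 CPM). The groups were apart in each cell type, and the co-cultured ILC2 libraries held the fewest reads. Here and below, groups that are apart or overlap describe 2 libraries against 2. The share of all genes with groups apart was not counted, so this is a description only. The log2 change of -6.69 ± 0.49 (adjusted p = 3.3e-07, edgeR) was -8.86 without co-cultured replicate 2 and -5.90 without co-cultured replicate 1. Between the same ILC2 libraries the CD8 T cell and NK cell markers fell as well, and their part in this change of Ifng was not tested.

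In CD8 T cells none of the 10 GTPases fell with Ifng: 5 rose, Gbp9, Gbp8, Gbp3, Gbp7 and Irgm1, and 5 did not pass the test (edgeR quasi-likelihood test, Benjamini-Hochberg adjusted p under 0.05 over 15948 genes). The count of 5 of 10 higher stands beside 30.2% of all genes tested, and 0 of 10 lower beside 30.7% (60.9% in either direction). The median log2 change of the members was 0.14, beside -0.01 for all genes. Summed over the 10, the members took 1376 and 1298 CPM in cells cultured alone and 1568 and 1479 CPM in co-cultured cells, so that the groups did not overlap.

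Gbp9 and Gbp8, encoded in the GBP cluster on chromosome 5, changed most. Gbp9 stood at 35.4 and 32.6 CPM in CD8 T cells cultured alone and at 65.2 and 58.7 CPM after co-culture, a log2 change of 0.79 ± 0.09 (edgeR adjusted p = 4.3e-06). Gbp8 went from 70.8 and 69.5 CPM to 121 and 106 CPM (0.62 ± 0.08, adjusted p = 2.2e-05). For both genes each co-cultured library lay above each library cultured alone. The other 2 members of that cluster overlapped between the groups: Gbp4 stood at 98.9 and 82.3 CPM alone and at 96.9 and 80.9 CPM co-cultured (-0.11 ± 0.10, adjusted p = 0.37), with replicate 1 the higher library in both groups, and Gbp6 at 100.2 and 88.7 CPM against 103 and 97.6 CPM (0.01 ± 0.08, adjusted p = 0.93).

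On chromosome 3, Gbp3 and Gbp7 rose, and Gbp2 and Gbp5 did not pass the test. Gbp3 stood at 54.4 and 52.0 CPM in CD8 T cells alone and at 77.3 and 76.6 CPM after co-culture (log2 change 0.45 ± 0.07, edgeR adjusted p = 0.00016). Gbp7, which has been linked to the oxidative defence of phagosomes, stood at 125 and 114 CPM and then at 163 and 156 CPM (0.34 ± 0.07, adjusted p = 0.0014). The co-cultured libraries were the higher ones for both genes. Gbp2, which is anchored to membranes by a lipid tail and is recruited to parasite vacuoles, stood at 206 and 198 CPM and then at 227 and 219 CPM, apart in CPM but with a log2 change of 0.06 ± 0.07 after scaling (adjusted p = 0.43). Gbp5, linked to inflammasome assembly, was the least abundant member per length and stood at 8.85 and 8.39 CPM alone and 8.54 and 9.0 CPM co-cultured (-0.05 ± 0.13, adjusted p = 0.74), and its groups overlapped.

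Irgm1 and Igtp are regulatory IRGs, which hold the effector IRGs in check at the cell's own membranes. Irgm1, on chromosome 11, stood at 162 and 158 CPM in CD8 T cells alone and at 201 and 195 CPM after co-culture (log2 change 0.23 ± 0.07, edgeR adjusted p = 0.011). The groups were apart, but the call was lost without co-cultured replicate 1 (0.21, adjusted p = 0.089) and when the contrast came from one fit of all 8 libraries (0.23, adjusted p = 0.062). Igtp, the most abundant member per length, stood at 515 and 494 CPM alone and at 506 and 481 CPM co-cultured (-0.11 ± 0.07, adjusted p = 0.17), with overlapping groups.

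**Figure D1:**
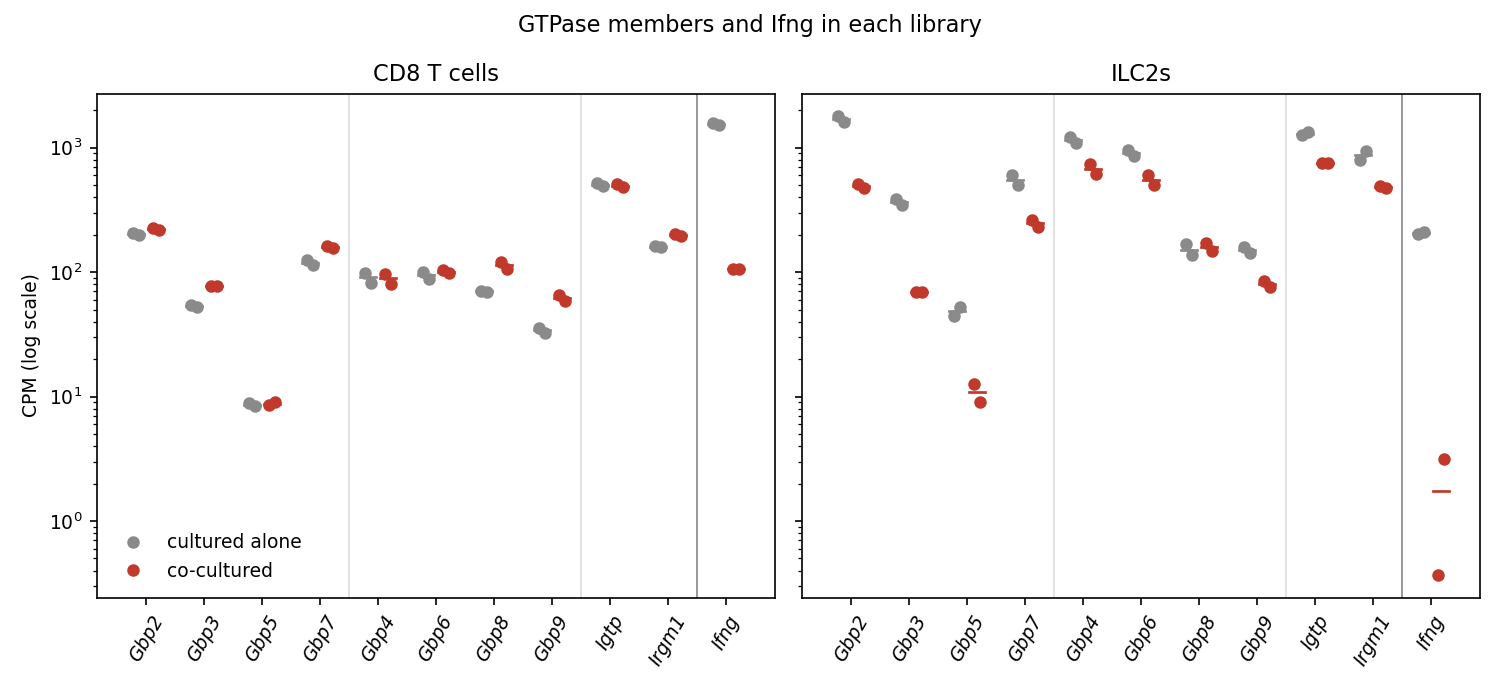
CPM (logarithmic axis) of the 10 GTPases and Ifng in each of the 8 libraries; each dot is 1 library and each bar the mean of the 2 libraries of a group. Ifng is lower in the co-cultured libraries of both cell types, whereas the GTPases shift little in CD8 T cells and are mostly lower in co-cultured ILC2s.

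In ILC2s, 9 of the 10 GTPases fell with Ifng and none rose; Gbp8 did not pass the test. The 9 of 10 lower stand beside 34.4% of all 16739 genes tested, and 0 of 10 higher beside 31.8% (66.3% in either direction), by the same edgeR test and threshold. The median log2 change of the members was -0.66, beside -0.01 for all genes. Their sum went from 7371 and 7007 CPM in the libraries labelled alone to 3682 and 3347 CPM in the co-cultured ones. The stromal, T cell, macrophage and NK cell markers fell between the same libraries, as given above, and their part in these changes was not tested.

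Among the members, the steepest falls were on chromosome 3. Gbp3 stood at 384 and 348 CPM in the ILC2 libraries labelled alone and at 69.1 and 69.1 CPM after co-culture (log2 change -2.19 ± 0.12, edgeR adjusted p = 3.3e-08). Gbp5 stood at 44.2 and 52.6 CPM and then at 12.6 and 9.03 CPM (-1.94 ± 0.19, adjusted p = 3e-06). Gbp2 stood at 1781 and 1616 CPM and then at 508 and 474 CPM (-1.57 ± 0.12, adjusted p = 3.9e-07). In all 3 genes both co-cultured libraries lay well below both libraries labelled alone. Gbp7 fell less, from 603 and 501 CPM to 261 and 231 CPM (-0.95 ± 0.13, adjusted p = 6.9e-05).

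The chromosome 5 members fell by less or did not pass. Gbp9 stood at 158 and 142 CPM in the libraries labelled alone and at 84.2 and 76.1 CPM after co-culture (log2 change -0.69 ± 0.13, edgeR adjusted p = 0.00056). Gbp4 stood at 1226 and 1085 CPM and then at 739 and 618 CPM (-0.55 ± 0.13, adjusted p = 0.0034), and Gbp6 at 956 and 852 CPM and then at 597 and 503 CPM (-0.50 ± 0.13, adjusted p = 0.0058). None of these 3 overlapped between the groups. Gbp8 stood at 167 and 136 CPM alone and at 171 and 148 CPM co-cultured (0.29 ± 0.14, adjusted p = 0.085), with overlapping groups. Gbp8 passed as higher under 6 alternatives, and turned to -1.35 (adjusted p = 2.6e-06) when the libraries were scaled so that the ILC2 markers had a median change of 0.

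Both IRGs fell in the ILC2 table. Irgm1 stood at 797 and 934 CPM in the libraries labelled alone and at 492 and 470 CPM after co-culture (log2 change -0.63 ± 0.12, edgeR adjusted p = 0.00082). Igtp stood at 1255 and 1341 CPM and then at 749 and 748 CPM (-0.58 ± 0.11, adjusted p = 0.00066). The 2 groups were apart for each gene, and the members' changes therefore ran from -2.19 to -0.95 on chromosome 3, from -0.69 to 0.29 on chromosome 5 and from -0.63 to -0.58 on chromosome 11. In CD8 T cells the same ranges were -0.05 to 0.45, -0.11 to 0.79 and -0.11 to 0.23. The chromosome 11 ranges rest on 2 members. The 5 other listed chromosome 11 genes (Irgm2, Ifi47, Tgtp1, Tgtp2 and Gm12250) ran from -1.66 to -1.0 in ILC2s, which overlaps the chromosome 3 range. In CD8 T cells these 5 ran from -0.75 to 0.81.

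**Figure D2:**
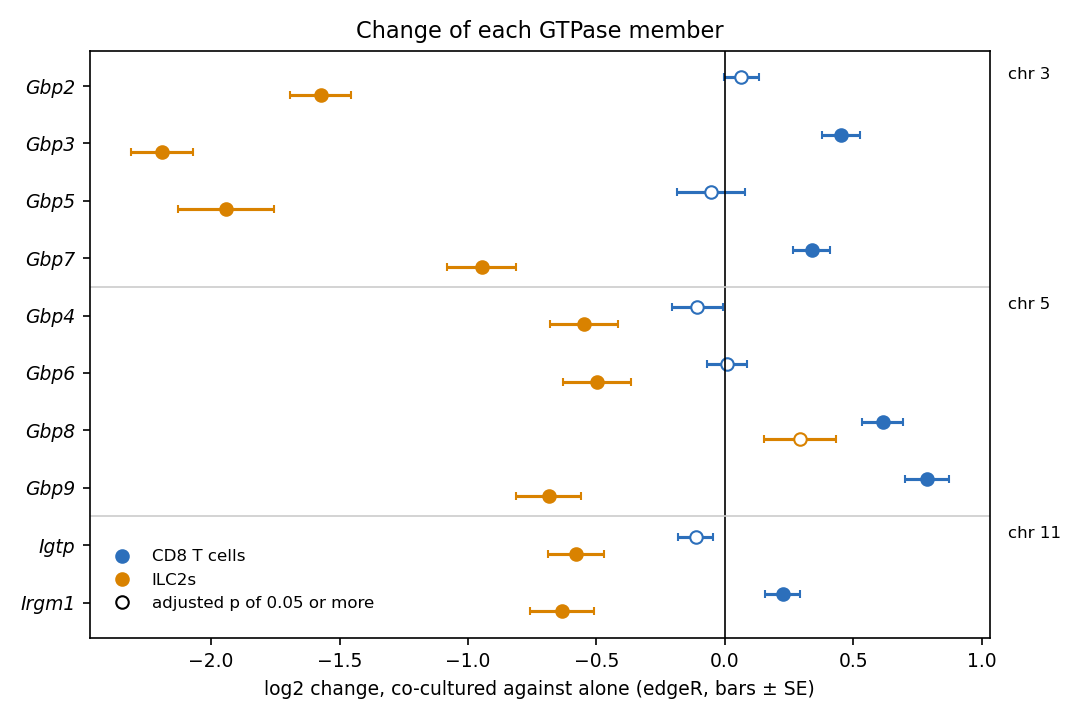
Log2 change from culture alone to co-culture for each GTPase, with bars of 1 standard error, grouped by chromosome; filled points have an edgeR adjusted p under 0.05. In ILC2s the chromosome 3 genes lie lowest (-2.19 for Gbp3), and in CD8 T cells the points lie between -0.11 and 0.79.

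The co-culture change differed between the cell types for all 10 members, each lower in ILC2s than in CD8 T cells (interaction term in edgeR over the 8 libraries), beside 32.6% of the 15532 genes tested (21.0% were higher and 53.6% differed in either direction). The median difference over the members was -1.23 log2 units, beside -0.12 for all genes. The difference was -2.80 ± 0.13 for Gbp3 (adjusted p = 5.4e-11), -2.05 ± 0.23 for Gbp5 (adjusted p = 1.7e-06) and -1.80 ± 0.13 for Gbp2 (adjusted p = 1.1e-08). It was smallest for Gbp8, at -0.48 ± 0.16 (adjusted p = 0.021). That call for Gbp8 was lost under 8 of the 17 alternatives (adjusted p 0.05 to 0.11), and the call for Gbp4 without CD8 co-cultured replicate 1 (-0.47, adjusted p = 0.061). The difference for Ifng was -2.89 ± 0.45 (adjusted p = 5.5e-05).

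Levels of different members can be compared only per length, here as reads per kilobase of exon, scaled to the library total (RPKM). In CD8 T cells alone Igtp led at 249.5 ± 7.2 RPKM (SD, n = 2), followed by Gbp2 at 80.3 ± 2.2 and Irgm1 at 27.5 ± 0.4. Gbp7 (21.2 ± 1.4) and Gbp8 (20.4 ± 0.3) overlapped, as did Gbp3 (16.3 ± 0.5) and Gbp6 (15.9 ± 1.4). Below them came Gbp4 at 12.1 ± 1.6, Gbp9 at 6.57 ± 0.38 and Gbp5, lowest, at 1.3 ± 0.05. After co-culture Gbp8 (33.0 ± 3.1) overlapped Irgm1 (34.0 ± 0.7) and stood above Gbp7 (28.4 ± 0.8), and Gbp9 (12.0 ± 0.9) overlapped Gbp4 (11.9 ± 1.5).

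The ILC2 order differed at the top. In the libraries labelled alone Gbp2 (675 ± 46 RPKM, SD, n = 2) and Igtp (642 ± 30) overlapped, and Gbp4 (154 ± 13), Gbp6 (152 ± 12) and Irgm1 (149 ± 17) formed a second overlapping group. Gbp3 (112 ± 8) and Gbp7 (98.3 ± 12.8) came next and overlapped, followed by Gbp8 (44.0 ± 6.3), Gbp9 (29.0 ± 2.1) and Gbp5 (7.29 ± 0.89). After co-culture Igtp (370 ± 0.3) stood above Gbp2 (195 ± 9.7), and Gbp3, at 21.2 RPKM in both libraries, fell below Gbp8 (46.4 ± 4.6) and Gbp7 (43.8 ± 3.7). Set side by side, the CPM of a member was higher in the ILC2 libraries than in the CD8 T cell libraries in all 10 cases when cultured alone, from 2.16 times (Gbp8) to 12.8 times (Gbp4). After co-culture it was 7.63 times for Gbp4, 5.47 for Gbp6 and 0.90 for Gbp3. The CPM of Ifng was 0.13 times and 0.02 times that of CD8 T cells. The 2 tables were counted separately, and the share of all genes higher in the ILC2 libraries was not counted. The ILC2 libraries labelled alone also held the stromal, T cell, macrophage and NK cell markers given above, whose part in these ratios was not tested. The ratios are therefore a description.

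Some members share sequence with neighbours, which limits how reads can be assigned. Of the 50-base stretches in annotated transcripts, 70.7% of those of Gbp6 also occur in transcripts of other genes, 18.1% of Gbp8, 12.7% of Gbp7, 11.8% of Igtp (shared with Irgm2), 8.05% of Gbp9 and 7.78% of Gbp4. The share was 3.75% or less in Gbp2, Gbp3, Gbp5 and Irgm1. On GRCm38 the annotated loci of Gbp4 (chr5:105115767-105139586), Gbp8 (chr5:105014150-105139540) and Gbp9 (chr5:105077630-105139539) overlap on the minus strand, and Igtp (chr11:58199556-58207591, plus strand) overlaps Irgm2 (chr11:58199618-58222782, same strand). How shared reads were counted is not stated, so the values of Gbp6 in particular are uncertain. The other loci are Gbp2 at chr3:142620602-142638008, Gbp3 at chr3:142560026-142573209, Gbp5 at chr3:142493978-142522344 and Gbp7 at chr3:142530342-142550149, all on the plus strand, and Gbp6 at chr5:105270702-105293698 and Irgm1 at chr11:48861968-48871683 on the minus strand.

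The other genes of the pathway are given from lists set for this purpose, in the order ligand, receptor, factor and inhibitor. Counts for each list stand beside 30.2% higher and 30.7% lower of all genes tested in CD8 T cells. In ILC2s these shares were 31.8% and 34.4%. Of 15 interferons and inducing cytokines, CD8 T cells had 4 that could be tested (none rose and 2 fell) and ILC2s had 5 (1 rose and 3 fell); the type I interferon genes of the list were among those not tested. The 2 that fell in CD8 T cells were Ifng and Ebi3, and the 3 in ILC2s were Ifng, Il18 and Il27, of which Ebi3 in CD8 T cells (6.32 ± 0.04 to 1.07 ± 0.14 CPM), Il18 and Il27 were chosen after their values were seen. In ILC2s Ebi3, a subunit of interleukins 27 and 35, rose from 34.4 ± 1.5 to 101 ± 3.4 CPM (SD, n = 2; log2 change 1.77 ± 0.12, edgeR adjusted p = 1.9e-07), a call lost with the libraries scaled to ILC2 markers (0.12, adjusted p = 0.37).

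Receptor and JAK-STAT genes rose in both cell types while Ifng fell. All 11 rose in CD8 T cells (median log2 change 1.24), and in ILC2s 7 rose, 1 fell and 3 did not pass (median 0.55). Ifngr1, the ligand-binding receptor chain, stood at 334 and 377 CPM in CD8 T cells alone and at 1527 and 1508 CPM after co-culture (2.01 ± 0.08, edgeR adjusted p = 1.3e-09), and in ILC2s at 1080 and 1062 CPM and then at 2064 and 2018 CPM (1.14 ± 0.11, adjusted p = 2.5e-06). Each co-cultured library was the higher one in both cell types. Ifngr2, the signalling chain, rose in CD8 T cells from 38.5 and 38.2 to 123 and 112 CPM (1.54 ± 0.08, adjusted p = 9.5e-09) and did not pass in ILC2s (126 and 140 CPM, then 122 and 115 CPM; 0.04 ± 0.12, adjusted p = 0.77). The kinases Jak1 and Jak2 rose by 1.32 (edgeR adjusted p = 2.2e-08) and 1.34 (adjusted p = 2e-08) in CD8 T cells, and by 0.68 (adjusted p = 0.0012) and 0.55 (adjusted p = 0.0059) in ILC2s. The ILC2 call for Jak2 was lost without co-cultured replicate 1 (0.30, adjusted p = 0.068). Stat3 rose by 1.37 in CD8 T cells and 1.5 in ILC2s, and Tyk2 by 0.72 in ILC2s. With the ILC2 libraries scaled to ILC2 markers, the ILC2 changes of Ifngr1, Ifngr2, Jak1, Jak2, Stat3 and Tyk2 all turned negative.

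Among 13 transcription factors of interferon responses, 7 of the 12 tested rose and 2 fell in CD8 T cells (median 0.39), and 2 rose and 7 fell in ILC2s (median -0.50). Irf1, which acts directly on GBP promoters, rose in both, from 310 and 299 to 489 and 449 CPM in CD8 T cells (log2 change 0.54 ± 0.07, edgeR adjusted p = 2.1e-05) and from 1009 and 998 to 1354 and 1282 CPM in ILC2s (0.61 ± 0.11, adjusted p = 0.00047). Its change did not differ detectably between the cell types (-0.10 ± 0.13, adjusted p = 0.55), and under marker scaling its ILC2 change turned to -1.04 and the difference passed the test (-1.65, adjusted p = 4.6e-09). Irf8 rose by 0.85, Eomes rose by 0.83 and Batf3 fell by 3.55 in CD8 T cells. In ILC2s Batf2 fell by 4.85, Eomes by 3.68, Tbx21 by 3.5 and Irf7 by 1.40. Eomes is also among the NK cell markers that fell between these libraries. The part of other lineages in these ILC2 changes was not tested.

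Of 11 inhibitors of interferon signalling, 4 rose and 4 fell in CD8 T cells (median log2 change -0.10) and 4 rose and 5 fell in ILC2s (median -0.27). Socs1, the feedback inhibitor of JAK kinases that interferon gamma induces, stood at 133 and 110 CPM in CD8 T cells alone and at 95.8 and 103 CPM after co-culture (-0.36 ± 0.09, edgeR adjusted p = 0.0033). In ILC2s it stood at 352 and 310 CPM and then at 80.0 and 82.0 CPM (-1.82 ± 0.12, adjusted p = 1.5e-07). It was thus lower in every co-cultured library. Among the others in CD8 T cells, Socs3 rose by 2.0, Usp18 by 1.55, Pias3 by 1.11 and Pias1 by 0.59, and in ILC2s Usp18 fell by 2.19, Ptpn6 by 1.01 and Socs3 by 1.00.

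Among the remaining GTPases, more fell than rose in both cell types. Of the 12 genes measured in CD8 T cells from the list of other interferon-inducible GTPases, 8 fell, 1 rose and 3 missed the threshold (median log2 change -0.43). The list also holds Rnf213, which is not a GTPase (0.04 in CD8 T cells and -1.20 in ILC2s). GENCODE M21 annotates Gm12250 as a processed pseudogene, and Gbp11 and Mx2 as polymorphic pseudogenes. Irgm2, the third regulatory IRG, rose from 37.7 ± 1.9 to 69.8 ± 3.5 CPM (0.81 ± 0.08, edgeR adjusted p = 2.6e-06), and the effector IRGs Iigp1 (-1.29), Tgtp1 (-0.74) and Tgtp2 (-0.64) fell. In ILC2s 12 of 13 fell and Gbp2b did not pass (median -1.27), with Iigp1 at -3.65, Gm12250 at -1.66, Ifi47 at -1.37 and Tgtp1 at -1.27.

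Of the other interferon gamma targets, 5 rose and 16 fell among 25 tested in CD8 T cells (median log2 change -0.69), and 7 rose and 18 fell among 28 in ILC2s (median -1.09). Named falls in CD8 T cells were those of Serpina3g, from 109 ± 15.7 to 2.08 ± 0.52 CPM, Serpina3f, Cd74, from 56.9 ± 4.3 to 1.78 ± 0.16 CPM, and H2-Eb1. Cd74 and H2-Eb1 belong to the antigen presentation machinery of professional antigen-presenting cells. In the ILC2 libraries the named falls were those of Cxcl10, from 541 ± 7 to 0.32 ± 0.02 CPM, Cxcl9, from 510 ± 26 to 0.37 ± 0.03 CPM, Ubd and Slamf8. Stromal, T cell, macrophage and NK cell markers fell between the same libraries, as given above, and their part in these falls was not tested. The genes that rose were added after their values were seen. In CD8 T cells they were Tapbp, Cd274, Upp1, Tap1 and Tap2. In ILC2s they were H2-D1, from 7173 ± 599 to 18706 ± 883 CPM, H2-K1, H2-Ab1, Tapbp, B2m, Tap1 and Tap2. Summed over the list, CPM went from 25484 ± 1497 to 39887 ± 1808 in ILC2s and from 11643 ± 133 to 9163 ± 185 in CD8 T cells. Values of these rises under marker scaling are not given here. Type I interferon-stimulated genes fell in 12 and rose in 5 of 22 tested in CD8 T cells (median -0.42; Ifitm3 -2.96, Isg20 -2.45, Ddx58 1.40, Dhx58 1.13), and fell in 20 and rose in 1 of 22 in ILC2s (median -1.48; Oasl1 -5.95, Ifit2 -5.35, Oasl2 -4.88, Ifit1 -4.14).

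Partners that place the GTPases on membranes or act with them moved in both directions: 8 rose and 7 fell of 23 in CD8 T cells (median log2 change 0.04), and 10 rose and 8 fell of 24 in ILC2s (median -0.09). The CD8 T cell counts lie near the shares of all genes tested (30.2% higher and 30.7% lower) and are not read as a result about the partners. Casp1 and Casp4, the inflammasome proteases, fell by 2.62 and 2.11 in CD8 T cells, while Gsdmd, the pore-forming protein they cleave, rose by 0.92 and Trim21 by 0.80. In ILC2s Nlrp3 (1.83), Traf6 (1.45), Atg12 (1.37) and Aim2 (1.29) rose. With the libraries scaled to ILC2 markers none of these 4 rises held: Nlrp3 was at 0.18 (edgeR adjusted p = 0.5), and Traf6 (-0.20), Atg12 (-0.28) and Aim2 (-0.35) turned negative.

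**Figure D3:**
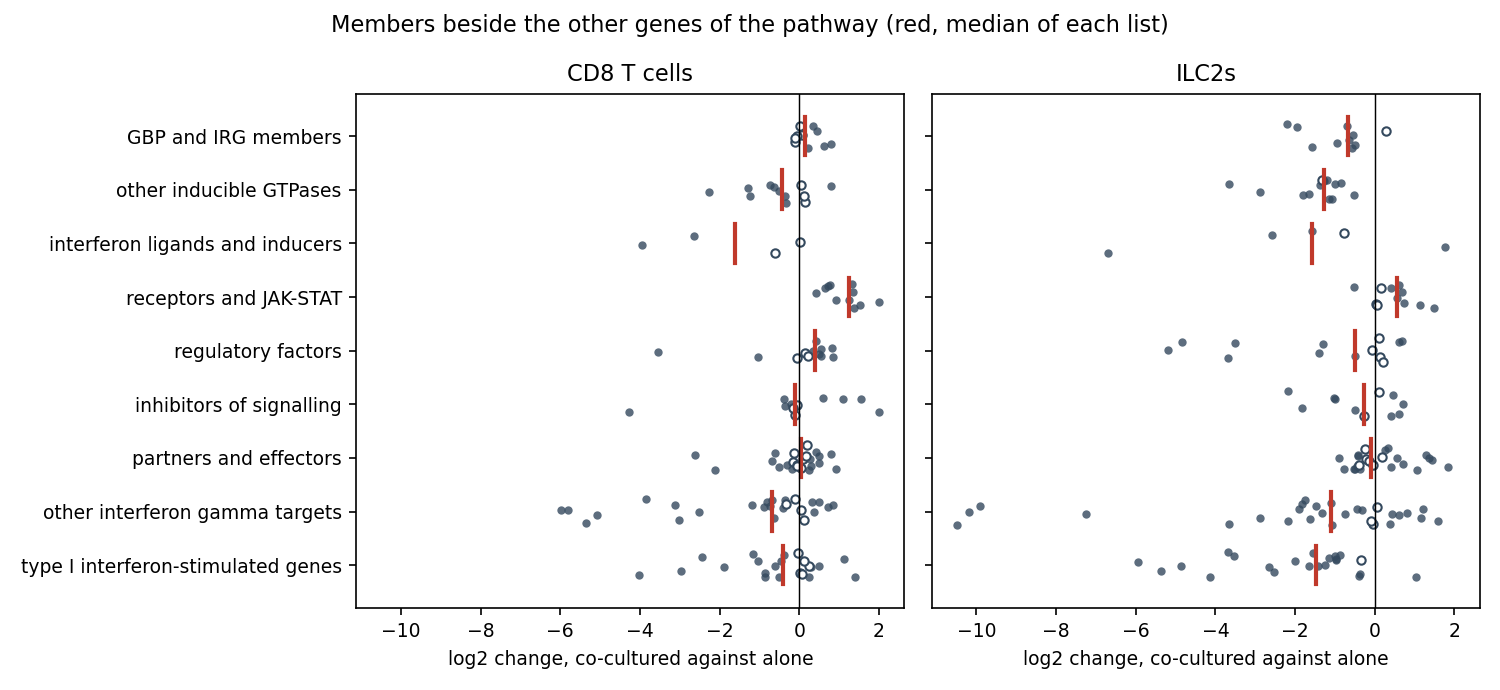
Log2 change of every tested gene in the members and the 8 pathway lists, with CD8 T cells and ILC2s in separate panels on one scale; filled points have an edgeR adjusted p under 0.05 and red lines are medians. In CD8 T cells the members' median is 0.14 and that of the receptor and JAK-STAT genes 1.24; in ILC2s these are -0.66 and 0.55.

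Genes with a pattern like that of the members were found from the distance to the median member, the library-by-library median of the members' centred log2 CPM over the 8 libraries. Among 7598 candidates the 5 closest were Parp14 (root mean square difference 0.09 log2 units), Lamp2 (0.09), Mcfd2 (0.092), Ppp2r5b (0.158) and Icam1 (0.159). Lamp2 encodes a lysosomal membrane protein and Icam1 an adhesion molecule. Among the members Gbp7 was closest to their own median (0.171), followed by Irgm1 (0.229) and Gbp2 (0.286), and Gbp4 was farthest (0.872), with Gbp8 at 0.691 and Gbp6 at 0.657. The distance of Ifng was 4.22. The levels of the cell types come from separate tables.

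**Figure D4:**
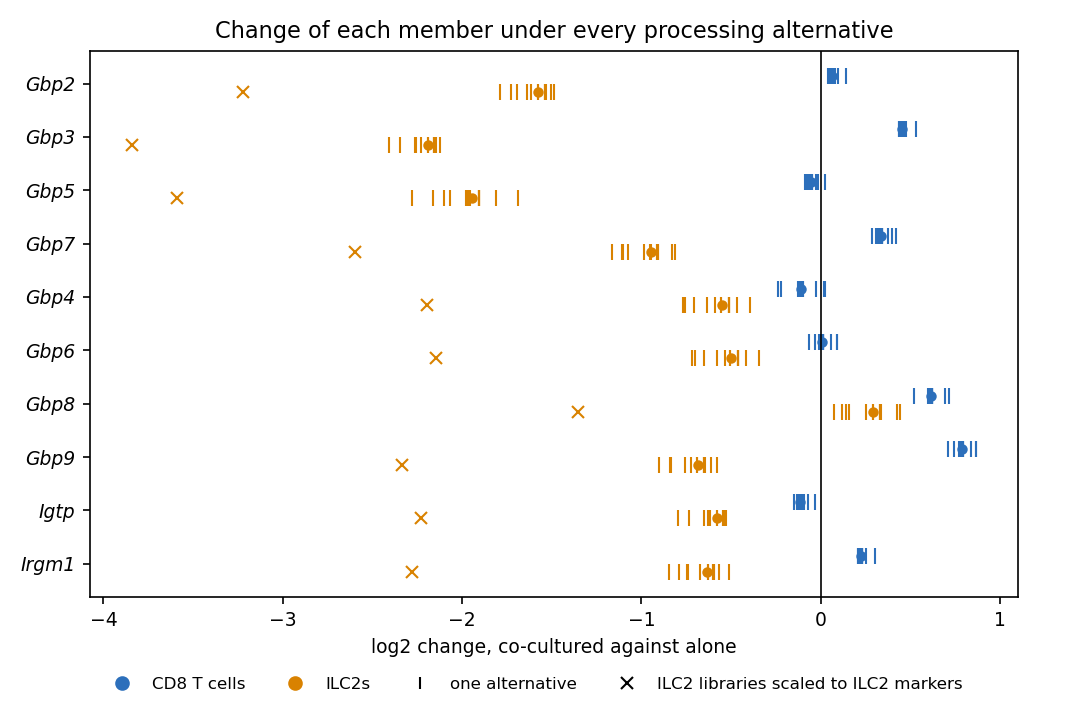
Log2 change of each member under each processing alternative (ticks), with the value reported as a dot and, for ILC2s, the scaling to ILC2 markers as a cross. In ILC2s 9 of 10 members lie below 0 in every alternative shown, and only Gbp8 crosses 0, under the marker scaling. That scaling shifts all ILC2 changes downward together, so it could not have raised a member above 0 and does not test the falls.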

How the data were processed

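RNA from 8 libraries was extracted with Trizol and made into SMART-Seq v4 libraries, per the labels. The authors deposited raw read counts per gene, 1 table per cell type; per the submitters' processing notes, the build was mm10 and the tools were StringTie 2.1.3b, SAMtools 1.9, HISAT2 2.1.0 and Trimmomatic 0.38, with no roles given. How strand and multiply mapped reads were treated is not given in the sources used here. Counts were divided by library totals for CPM, and by GENCODE M21 exon length as well for RPKM.

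Each table was tested with edgeR 4.0.16 in R 4.3.3 (quasi-likelihood test, filterByExpr, TMM scaling, Benjamini-Hochberg adjustment over all genes tested, threshold 0.05), with SE taken as the size of the log2 change over the root of F; the difference between cell types was the interaction over genes of both tables. The scripts were tested on simulated data. Alternatives used DESeq2 1.42.0, limma 3.58.1, other scalings and filters, a replicate block and each library left out. Named genes were all members, Ifng, 6 pathway genes (1 more is not reported here), and from each list up to 4 with the largest change past the threshold and a mean CPM of at least 5. The members and lists were chosen with earlier results of these data known.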

Additional observations from a re-analysis of the deposited data

Results flagged for a closer look

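The following 16 genes changed differently in the 2 cell types on co-culture, by a test of that difference itself (edgeR interaction over the 8 libraries, adjusted p under 0.05). The 16 are those that passed among the members, Ifng and the pathway genes that were always named. Irf1, also in that set, did not pass (-0.095, adjusted p = 0.55). Of all 15532 genes tested, 53.6% passed (32.6% lower and 21.0% higher), so passing alone does not set these 16 apart. Each value is the log2 change in ILC2s minus that in CD8 T cells. For the GBPs of chromosome 3 the difference was -2.80 for Gbp3, -2.05 for Gbp5, -1.80 for Gbp2 and -1.44 (adjusted p = 8e-07) for Gbp7. For those of chromosome 5 it was -1.63 (adjusted p = 1.8e-07) for Gbp9, -0.67 (adjusted p = 0.0018) for Gbp6, -0.60 (adjusted p = 0.0085) for Gbp4 and -0.48 for Gbp8. The IRGs differed by -1.02 (Irgm1, adjusted p = 1.7e-05) and -0.63 (Igtp, adjusted p = 0.00053). Ifng differed by -2.89, with a range of -5.08 to -2.10 over the alternatives. Of the pathway genes, Ifngr2 differed by -1.65 (adjusted p = 1e-07), Socs1 by -1.61 (adjusted p = 1.6e-07), Ifngr1 by -1.03 (adjusted p = 5.4e-06), Jak2 by -0.95 (adjusted p = 0.00018) and Jak1 by -0.80 (adjusted p = 0.00059). The stromal, T cell, macrophage and NK cell markers that stand higher in the ILC2 libraries labelled alone enter each of these differences, and their part was not tested.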

How the results depend on the processing

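Over 13 alternatives the number of members called higher in CD8 T cells was 5, or 4 in the 8-library fit and without CD8 co-cultured replicate 1, and none was called lower. Over 14 alternatives 9 members were called lower in ILC2s, or 10 with the libraries scaled to ILC2 markers. Gbp8 was called higher in ILC2s, so that members called higher went from 0 to 1, under upper-quartile scaling (0.34, edgeR adjusted p = 0.031), a filter of CPM of at least 1 (0.33, adjusted p = 0.035), DESeq2 (0.33, adjusted p = 0.039) and the replicate block (0.29, adjusted p = 0.028), and over the left-out libraries that number ranged from 0 to 1 (1 without ILC2 alone replicate 1 or co-cultured replicate 2). Scaling to ILC2 markers left 389 genes called higher and 13772 lower in ILC2s, and 272 higher and 12585 lower in the interaction. It put the median log2 change over all genes in ILC2s at -1.66, against -0.01 in the main fit. It reversed Gbp8 (-1.35), Ifngr1 (-0.50), Ifngr2 (-1.60), Irf1 (-1.04), Jak1 (-0.96), Jak2 (-1.09), Stat3 (-0.15), Tyk2 (-0.92), Aim2 (-0.35), Atg12 (-0.28), Traf6 (-0.20), Cd79b (-1.01), Pecam1 (-0.46) and Xcr1 (-0.25). With library totals alone Ifngr2 (-0.17) in ILC2s and Gbp5 in CD8 T cells (0.03) changed sign, as did Ifngr2 in the 8-library fit (-0.11), without ILC2 alone replicate 1 and without co-cultured replicate 1 (range -0.069 to 0.127). In CD8 T cells Gbp4 changed sign without alone replicate 1 or co-cultured replicate 2 (range -0.239 to 0.024 over the left-out libraries), and Gbp6 under upper-quartile scaling (-0.008) and without alone replicate 2 or co-cultured replicate 1 (range -0.063 to 0.089); none of these passed the test in either sign. The interaction of Irf1 turned to 0.029 with DESeq2's size factors in edgeR or with DESeq2 and to 0.069 with upper-quartile scaling. Of all genes called in the interaction 39.2% were higher, against 49.4% with upper-quartile scaling, 29.0% with library totals and 2.1% with marker scaling; in ILC2s the share was 48%, against 38.3% with library totals and 2.7% with marker scaling. Samples with the same replicate number deviated together with a correlation of 0.025 in CD8 T cells and 0.185 in ILC2s over 7607 genes, so the numbers were not taken to pair them; the block gave 4817 higher and 4915 lower genes in CD8 T cells, 5295 and 5761 in ILC2s, and 3305 and 5152 in the interaction. With 2 libraries a group the residual degrees of freedom were 2 in each table and 4 in the interaction, and genes with few reads, such as Ifng in co-cultured ILC2s, are limited by depth.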
